A study of Mus musculus with 15 samples.

Results

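The colony-stimulating factors and their receptors are 8 mouse genes: the ligand genes Csf1 (M-CSF), Csf2 (GM-CSF) and Csf3 (G-CSF), and the receptor genes Csf1r, Csf2ra, Csf2rb, Csf2rb2 and Csf3r. They were found by name, as the array probes whose transcript record maps to 1 of these symbols in a RefSeq gene table. This gave 14 probes for the 8 genes, among 55681 probes in all. All 8 genes passed the filter on dim probes that left 14192 named genes for testing.

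RNA was measured on 15 single-colour arrays of macrophages grown from mouse bone marrow for a week in M-CSF, the protein that Csf1 encodes. The cells were C57BL/6 wild type (WT) or carried the genotype Junb-fl/fl Lyz2-Cre+/+ on a C57BL/6 background (knockout, KO), in which a Cre recombinase in the myeloid gene Lyz2 removes Junb, a subunit of the transcription factor AP-1. Part of the wells of each genotype received lipopolysaccharide (LPS, a bacterial cell wall component), at 100 ng/ml for 4 h. The arrays comprised 4 WT untreated, 4 WT LPS, 4 KO untreated and 3 KO LPS wells (replicates 2, 3 and 4). The labels name no Cre-only control and give neither age nor sex, and they call the replicates independent wells. The p-values therefore measure the spread between wells, which may be technical.

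M-CSF binds the receptor tyrosine kinase encoded by Csf1r and keeps macrophages alive. GM-CSF binds an alpha chain from Csf2ra that pairs with the common beta chain from Csf2rb, which also serves interleukins 3 and 5, and mice carry a close copy of that chain, Csf2rb2, which serves interleukin 3. G-CSF binds the receptor from Csf3r and drives the making of neutrophils. The beta chain and Csf3r signal through Janus kinases and STAT proteins. LPS is known to make macrophages express several of these ligands, through NF-kB and AP-1 among other factors.

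Csf1 and Csf2 are shown by the 250 bases before the RefSeq transcription start (build GRCm38.p6), since both rose with LPS in both genotypes and since Junb is part of AP-1. Csf3 rose too, but it had no entry among the RefSeq promoter windows, and neither had Csf1r and Csf2rb. Csf1 lies at chr3:107760470-107760719 and Csf2 at chr11:54249900-54250149, both on the minus strand. The windows end at the base before the start and are read 5′ to 3′ along the gene. Capitals mark matches, on either strand, to an AP-1 site (TGANTCA), an NF-kB-like decamer (GGGA and CC with any 4 bases between) or the CK-1 core (GAGATTCC), and Csf2 has none of these.
Csf1: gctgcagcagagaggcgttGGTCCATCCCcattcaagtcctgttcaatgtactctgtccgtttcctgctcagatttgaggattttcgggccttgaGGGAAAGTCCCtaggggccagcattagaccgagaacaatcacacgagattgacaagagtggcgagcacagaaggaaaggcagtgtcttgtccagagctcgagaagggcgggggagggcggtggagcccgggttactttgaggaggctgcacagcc
Csf2: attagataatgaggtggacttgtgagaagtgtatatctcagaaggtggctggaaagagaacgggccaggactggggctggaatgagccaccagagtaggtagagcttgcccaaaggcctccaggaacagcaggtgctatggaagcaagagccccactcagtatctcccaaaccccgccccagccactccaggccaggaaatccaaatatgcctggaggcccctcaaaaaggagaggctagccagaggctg
Csf1 held an NF-kB-like match at -231 to -222 and a pair of overlapping ones, 1 on each strand, at -155 to -146 and -154 to -145, counted from the start. Csf2 held neither AP-1, NF-kB-like nor CK-1 letters in this window, and 1 C/EBP-like match (TTGCNNAA) at -145 to -138. Of 32851 RefSeq promoter windows of this length, 6.75% held the AP-1 letters, 17.6% the NF-kB-like, 0.755% the CK-1 and 9.56% the C/EBP-like. A match is a run of letters and not a shown binding site, and a window without a match says nothing of sites elsewhere. Each window follows the start that the RefSeq promoter table gives, and whether these cells start transcription there was not tested. The lack of matches for Csf2 therefore holds for the printed bases only.

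Of the receptor genes, Csf3r, Csf2rb2 and Csf2ra had an entry in the same RefSeq table, and none of the 5 windows held the AP-1 letters. The stretches around matches to GAGGAA, the letters of the core bound by PU.1, a factor known to act on myeloid receptor genes, are printed with the match in capitals (TTCCTC is the same match on the other strand). They lie at chr4:126024553-126024598 on the plus strand for Csf3r, and on the minus strand at chr15:78305863-78305908 for Csf2rb2 and chr19:61228419-61228452 for Csf2ra.
Csf3r: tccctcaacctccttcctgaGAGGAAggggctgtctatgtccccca
Csf2rb2: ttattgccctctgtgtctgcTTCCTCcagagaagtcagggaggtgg
Csf2ra: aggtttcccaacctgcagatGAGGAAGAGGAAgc
Each of these 3 receptor windows held at least 1 such match, Csf2ra held 2 next to each other, and neither Csf1 nor Csf2 held any. The letters are common, in 23.3% of all windows. Csf3r also held an NF-kB-like match at -129 to -120.

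Junb, the targeted gene, was well above background on all 8 WT arrays and on 0 of 7 KO arrays. All KO arrays lay on 1 slide and all WT arrays on the other, so slide and genotype cannot be told apart. Within each slide the untreated arrays lay in 1 row and the LPS arrays in the other, so row and LPS cannot be told apart either. Xist was above background on 8 of 8 WT and 0 of 7 KO arrays and Ddx3y on 0 and 7, although Kdm5d and Uty, also Y-linked, were above it on 5 and 6 of the WT arrays. Sex as Xist and Ddx3y mark it and genotype therefore cannot be told apart. All 8 matched macrophage markers were above background on every array, but Lyz2, whose locus carries the Cre, had mean levels of 8.84 and 9.09 in WT untreated and LPS cells against 0.66 and 2.15 in KO. The summed macrophage level, as multiples of the 75th percentile, was 1291 to 1479 in WT untreated, 1584 to 2441 in WT LPS, 573 to 1301 in KO untreated and 1290 to 1673 in KO LPS cells. This sum holds both Lyz2 and the member gene Csf1r, whose probe in the list read 1.82 on KO untreated replicate 3. The sum therefore does not measure macrophage content apart from these genes. Of other cell types, the dendritic cell list had a sum of 152 to 217 and 138 to 326 in WT untreated and LPS cells. In KO the sum was 102 to 180 and 172 to 235. Siglech led it, with group means of 7.24 to 7.57, so the sum does not measure dendritic cell content apart from Siglech. Sums of different lists cannot be ranked against each other, since they add different probes. Flt3, Itgax and Xcr1 were also above background on every array, and Clec9a on none. The part of that list in the results was not tested. The neutrophil, T and NK cell, fibroblast and B cell lists moved with groups. The B cell sum was 0.604 to 0.826 and 0.272 to 0.539 in WT untreated and LPS cells and 0.623 to 0.816 and 0.397 to 0.466 in KO. Cd79a and Cd79b were above background on every array, and Pax5 and Blk on none. Cd79b had mean levels of -1.09 and -4.06 in WT untreated and LPS cells and -0.90 and -2.94 in KO. The part of the B cell list in the results was not tested. The array-wide spread was largest on KO untreated replicate 3, WT untreated replicate 1 and WT LPS replicate 4, with an SD around the group mean of 0.64, 0.54 and 0.53 on the log2 scale against 0.23 to 0.43 elsewhere. Levels are log2 of the signal over the array's 75th percentile, so 0 is that percentile, and they order samples for 1 probe but not probes or genes.

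LPS raised the transcripts of all 3 ligands in both genotypes, by the widest margins among the 8 genes. All 3 ligand levels were lower in KO than in WT cells with LPS, and Csf1 also without it, but in the deposited value table the Csf1 and Csf2 differences with LPS turned to 0.17 each and the untreated Csf1 call was lost. Of the receptors, Csf2rb and Csf2ra rose with LPS in both genotypes, though Csf2ra did not under quantile normalization, and no receptor gene passed between genotypes by the probe that represents it. By limma with Benjamini-Hochberg adjustment at 0.05, 5 of 8 genes passed for LPS in WT, where 60% of all genes passed (34.8% rose and 25.2% fell), and 6 of 8 in KO, where 59% passed (31.1% rose and 28% fell). All of these members rose, and their shares are near or somewhat above those of all genes that passed. For the difference of the LPS responses 1 of 8 passed (Csf3, lower in KO), against 10.4% of all genes, of which 7.87% were lower. Between genotypes 1 of 8 passed untreated (Csf1, lower in KO, where 18.4% of all genes passed and 4.66% were lower) and 3 of 8 with LPS (the ligands, all lower in KO, where 29.8% passed and 16.2% were lower).

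**Figure D1:**
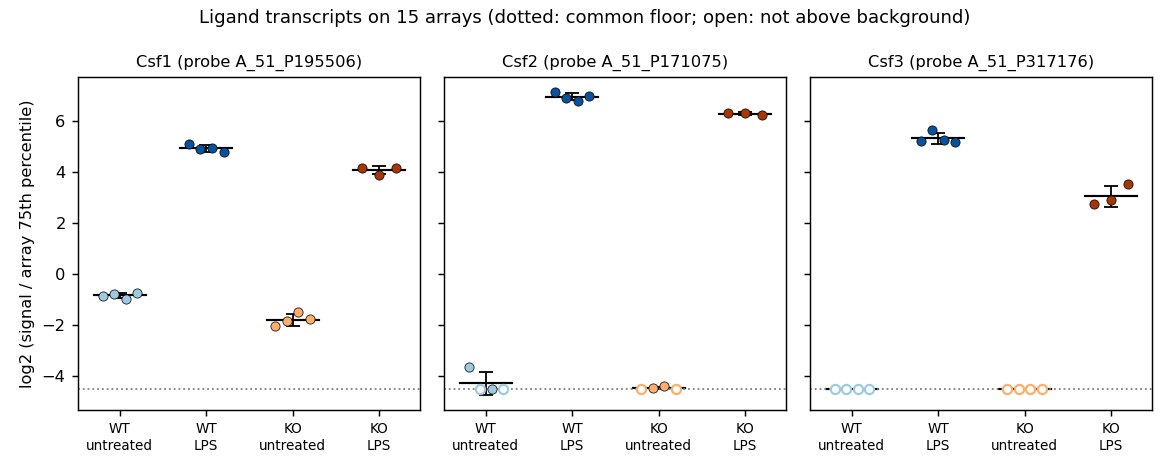
Log2 level (signal over the array's 75th percentile) of the 3 ligand transcripts on 15 arrays, with points for arrays, open points for arrays where the probe was not well above background, bars for the group mean ± SD, and a dotted line at the common floor. The KO LPS arrays lie under the WT LPS arrays for all 3 ligands, and Csf3 sits at the floor on all 8 untreated arrays.

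Csf1 encodes M-CSF itself, the growth factor in which the cells were cultured. Its main probe A_51_P195506, printed in 10 spots per array, had log2 levels of -0.86, -0.76, -0.95 and -0.75 in WT untreated and 5.09, 4.91, 4.95 and 4.79 in WT LPS cells. In KO cells the levels were -2.04, -1.84, -1.48 and -1.77 untreated and 4.18, 3.89 and 4.16 with LPS. The order was WT LPS, KO LPS, WT untreated, KO untreated, and no group overlapped its neighbour. LPS raised Csf1 by 5.77 ± 0.12 (log2 fold change ± SE, 54.5-fold, adjusted p = 1.34e-13) in WT and by 5.86 ± 0.13 (58.0-fold, adjusted p = 4.24e-13) in KO cells. The responses differed by 0.09 ± 0.18 (95% interval on 11 residual degrees of freedom, -0.31 to 0.49, adjusted p = 0.79), which missed the threshold.

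Csf1 was lower in the knockout with and without LPS. KO was 1.93-fold lower untreated (log2 -0.95 ± 0.12, adjusted p = 0.000129) and 1.81-fold lower with LPS (-0.86 ± 0.13, adjusted p = 0.000346). Csf1 was the only member whose WT and KO untreated arrays did not overlap, as was so for 21.3% of all genes. A pair of further probes, matched to another Csf1 transcript record, gave LPS responses of 4.76 ± 0.14 and 4.55 ± 0.15 in WT and 4.52 ± 0.15 and 3.96 ± 0.16 in KO. With LPS these probes were lower in KO by log2 -1.09 ± 0.15 and -1.03 ± 0.16, and untreated by -0.85 ± 0.14 and -0.44 ± 0.15, the last with adjusted p = 0.0608. All 3 probes thus had lower KO levels, and 1 of the 3 missed the threshold without LPS.

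The 10 spots of the main probe also show the technical error within an array. Their signals varied with a coefficient of variation of 8.87% to 19.7% per array. This spread holds neither the variation between wells nor that between slides.

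Csf2 encodes GM-CSF, which directs myeloid cells toward an inflammatory and dendritic cell-like state. Its probe A_51_P171075, also in 10 spots, read 89.3 in raw signal on WT untreated replicate 1 and 19.8 to 33.6 on the other 3, and 16.3 to 59.8 in KO untreated cells. With LPS the signal was 60979 to 118410 in WT and 38449 to 57163 in KO cells. The log2 levels with LPS were 7.14, 6.92, 6.81 and 6.998 in WT and 6.34, 6.31 and 6.24 in KO, so every KO LPS array lay under every WT LPS array. Untreated, the probe was well above background on 2 of 4 WT and 2 of 4 KO arrays, and the levels lay at or near the floor of -4.50 except -3.63 on WT untreated replicate 1.

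Csf2 rose with LPS by a fitted 11.25 ± 0.17 in WT (adjusted p = 3.65e-15) and 10.75 ± 0.18 in KO (adjusted p = 3.22e-14). These sizes depend on the floor, so Csf2 and Csf3 cannot be ranked by their rise. With LPS, KO was 1.59-fold lower than WT (log2 -0.67 ± 0.18, adjusted p = 0.0133). That call was lost with a pseudocount in place of the floor (-0.67, adjusted p = 0.073) and turned in the deposited value table (0.17, adjusted p = 0.744). Untreated, KO and WT differed by -0.18 ± 0.17 (adjusted p = 0.504). The difference of the LPS responses was -0.49 ± 0.25 (95% interval -1.04 to 0.05, adjusted p = 0.237). It passed at -0.71 (adjusted p = 0.0043) without WT untreated replicate 1, the array with the highest untreated signal. On LPS arrays the 10 spots varied by 1.83% to 12.2%.

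Csf3 encodes G-CSF, and it showed the largest genotype difference among the 8 genes. Its probe A_51_P317176 was well above background on 0 of 8 untreated arrays, where raw signals were 2.43 to 15.4. With LPS the log2 levels were 5.22, 5.65, 5.26 and 5.18 in WT and 2.74, 2.92 and 3.53 in KO. The KO arrays all lay under the WT arrays, and both groups lay far above the floor.

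Against the common floor, which the untreated arrays did not pass, LPS made Csf3 at least 910-fold higher in WT (adjusted p = 3.84e-15) and at least 189-fold higher in KO cells (adjusted p = 2.38e-13). With LPS, KO was 4.81-fold lower than WT (log2 -2.27 ± 0.16, adjusted p = 3.28e-07). The difference of the LPS responses was -2.27 ± 0.22 (adjusted p = 2.61e-05), against a median of -0.10 over all genes. Because Csf3 sat at the floor in both untreated groups, that difference is the difference between the LPS levels, which lie on separate slides. Over 28 alternative analyses it ranged from -2.50 to -2.04, with an adjusted p of at most 0.00053.

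**Figure D2:**
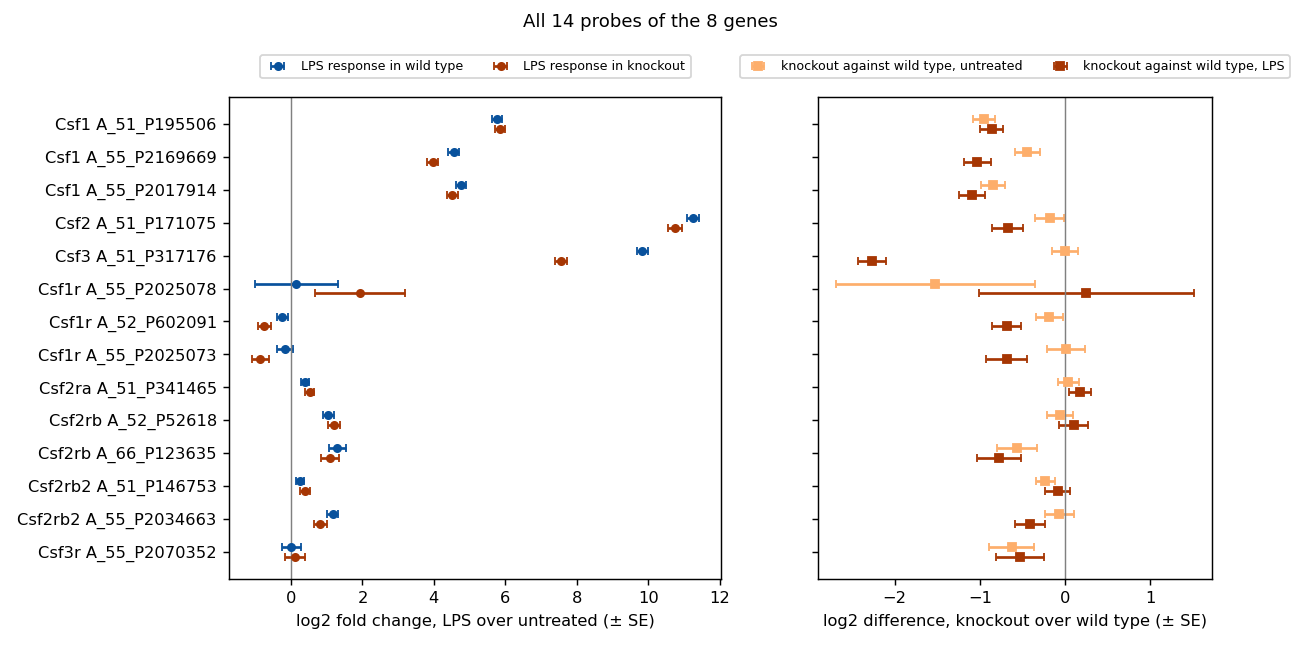
Left, log2 fold change of LPS over untreated, and right, log2 difference of KO over WT, for all 14 probes, each with its SE from limma. The ligand probes stand between 3.96 and 11.25 on the left, the receptor probes lie between -0.86 and 1.30 except the Csf1r probe A_55_P2025078 with its wide error, and Csf3 stands at -2.27 with LPS on the right.

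Csf1r encodes the M-CSF receptor, a surface kinase that marks macrophages. Its 3 probes did not give the same picture, so each is described. The probe that represents the gene, A_55_P2025078, had levels of 8.25 to 8.63 in WT untreated, 8.32 to 8.86 in WT LPS and 8.67 to 9.11 in KO LPS cells. In KO untreated cells it read 9.13, 8.01, 1.82 and 8.75. Replicate 3 thus lay far below all other arrays, at a raw signal of 3415 against 221750 or more in the other groups, while the other probes of Csf1r were not low on it. On that array 2115 spots had been set missing as outliers, against 132 to 514 on the others, and its part in the reading was not tested.

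With this probe the LPS response was 0.15 ± 1.15 in WT (adjusted p = 0.929) and 1.92 ± 1.25 in KO (adjusted p = 0.199), and without KO untreated replicate 3 the KO value was 0.22. The 95% interval for KO with all arrays, -0.82 to 4.67, shows how little the probe can tell here.

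The other Csf1r probes were lower in KO cells with LPS. Probe A_52_P602091 read 6.26, 5.94, 5.75 and 6.05 in WT untreated, 5.57, 6.04, 5.68 and 5.73 in WT LPS, 5.68, 5.88, 5.81 and 5.88 in KO untreated and 5.13, 4.70 and 5.38 in KO LPS cells. Every KO LPS array lay under every array of the other groups. The KO response was -0.74 ± 0.17 (adjusted p = 0.00243) and the WT response -0.24 ± 0.16 (adjusted p = 0.22), and their difference of -0.50 ± 0.23 did not pass (adjusted p = 0.235). With LPS, KO was below WT by log2 -0.69 ± 0.17 (adjusted p = 0.0102), which was -0.50 with adjusted p = 0.0617 without KO LPS replicate 3.

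Probe A_55_P2025073 gave like values. It read 3.46 to 3.75 in WT untreated, 3.20 to 3.82 in WT LPS, 3.37 to 3.89 in KO untreated and 2.88, 2.07 and 3.18 in KO LPS cells. The KO response was -0.86 ± 0.24 (adjusted p = 0.00825) and the WT response -0.17 ± 0.22 (adjusted p = 0.572), and the difference of -0.69 ± 0.32 did not pass (adjusted p = 0.237). With LPS it was lower in KO by log2 -0.68 ± 0.24 (adjusted p = 0.0517), and by -0.36 (adjusted p = 0.278) without KO LPS replicate 3. Under quantile normalization this pair of probes fell with LPS in WT as well, by -0.91 (adjusted p = 0.000908) and -0.62 (adjusted p = 0.0265), and in KO by -1.34 and -1.13. The scaling therefore decides whether the WT response passes. Across all genes, quantile normalization moved the median LPS response from 0.14 to -0.10 in WT and from 0.16 to -0.07 in KO, and the share of LPS calls that were rises from 58% to 43.5% in WT and from 52.6% to 37.8% in KO.

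**Figure D3:**
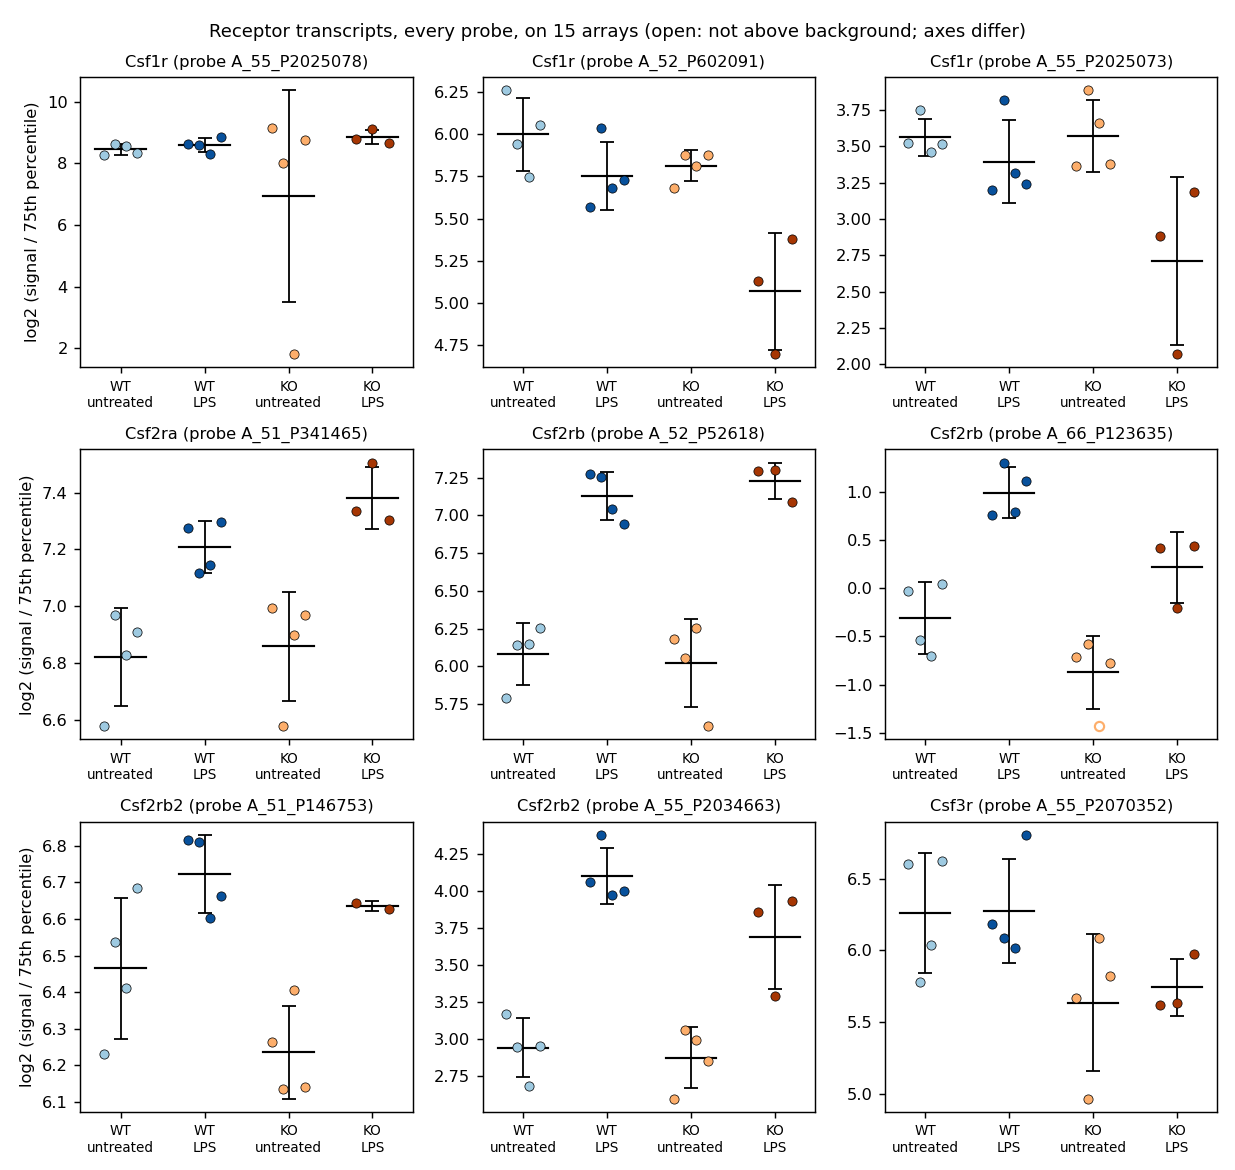
Log2 level (signal over the array's 75th percentile) of each receptor probe on 15 arrays, with points for arrays, open points where the probe was not well above background, and bars for the group mean ± SD; vertical axes differ between panels. The Csf1r probe A_55_P2025078 is set apart by the KO untreated array at 1.82, and both Csf2rb probes lie higher with LPS.

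Csf2ra encodes the alpha chain that binds GM-CSF. Its levels were 6.58, 6.97, 6.83 and 6.91 in WT untreated, 7.28, 7.12, 7.15 and 7.30 in WT LPS, 6.99, 6.58, 6.90 and 6.97 in KO untreated and 7.34, 7.51 and 7.30 in KO LPS cells. The LPS arrays lay above the untreated arrays within each genotype. The LPS response was 0.39 ± 0.12 in WT (adjusted p = 0.0115) and 0.52 ± 0.13 in KO (adjusted p = 0.00293). It turned under quantile normalization, to -0.19 (adjusted p = 0.0481) in WT and -0.08 (adjusted p = 0.42) in KO, so it has no settled direction, and without the 3 arrays of largest spread the WT value was 0.28 (adjusted p = 0.0727). It did not differ between genotypes past the threshold, by 0.17 ± 0.13 with LPS (95% interval -0.11 to 0.46, adjusted p = 0.337), although the KO and WT LPS arrays did not overlap.

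Csf2rb encodes the common beta chain, and it was the receptor gene whose rise held under both scalings. Its main probe A_52_P52618 read 5.79, 6.14, 6.15 and 6.26 in WT untreated, 7.27, 7.25, 7.04 and 6.94 in WT LPS, 6.18, 6.05, 6.25 and 5.60 in KO untreated and 7.29, 7.30 and 7.09 in KO LPS cells. LPS arrays stood clear of the untreated arrays in both genotypes. The response was 1.04 ± 0.15 in WT (2.06-fold, adjusted p = 3.47e-05) and 1.21 ± 0.16 in KO (2.31-fold, adjusted p = 2.01e-05), and under quantile normalization 0.41 and 0.55, both past the threshold. The responses differed by 0.16 ± 0.22 (95% interval -0.33 to 0.65, adjusted p = 0.685). The other probe, A_66_P123635, rose by 1.30 ± 0.24 in WT and 1.09 ± 0.26 in KO. The probes disagreed between genotypes with LPS, where the second was lower in KO by -0.77 ± 0.26 (adjusted p = 0.0406; -0.56 with adjusted p = 0.203 without KO LPS replicate 3) and the main probe gave 0.10 ± 0.16 (adjusted p = 0.696).

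Csf2rb2 lies close to Csf2rb, with a microRNA gene as its nearest neighbour on that side, and its transcript is so similar that the probes of this pair could share signal and are reported as uncertain. Its main probe A_51_P146753 read 6.23, 6.54, 6.41 and 6.69 in WT untreated, 6.82, 6.81, 6.60 and 6.66 in WT LPS, 6.26, 6.14, 6.41 and 6.14 in KO untreated and 6.65 and 6.63 in KO LPS cells, where the spot on replicate 2 was an outlier and left out. The WT groups overlapped and the KO groups did not. The response was 0.26 ± 0.11 in WT (adjusted p = 0.0694) and 0.40 ± 0.14 in KO (adjusted p = 0.0257), and it turned to -0.39 (adjusted p = 0.00203) and -0.24 (adjusted p = 0.076) under quantile normalization. The KO call was also lost without KO LPS replicate 3 (adjusted p = 0.0989) or 4 (0.087) and without KO untreated replicate 2 (0.059) or 4 (0.055). The other probe, A_55_P2034663, rose by 1.16 ± 0.17 in WT (adjusted p = 4.49e-05) and 0.82 ± 0.18 in KO (adjusted p = 0.00182), and by 0.70 and 0.52 under quantile normalization, so a rise of Csf2rb2 rests on that probe.

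Csf3r encodes the G-CSF receptor, a gene of neutrophils and their precursors that macrophages also express. Its levels were 6.60, 5.78, 6.04 and 6.62 in WT untreated, 6.18, 6.09, 6.02 and 6.81 in WT LPS, 5.67, 4.97, 6.09 and 5.82 in KO untreated and 5.62, 5.63 and 5.97 in KO LPS cells. LPS and untreated arrays overlapped in both genotypes, while KO LPS arrays lay under the WT LPS arrays. The LPS response was 0.01 ± 0.26 in WT (95% interval -0.56 to 0.58, adjusted p = 0.979) and 0.11 ± 0.28 in KO (95% interval -0.51 to 0.72, adjusted p = 0.764). KO and WT differed by -0.62 ± 0.26 untreated (adjusted p = 0.113) and -0.53 ± 0.28 with LPS (adjusted p = 0.173), which did not pass. Fewer cells of a type and less RNA per cell cannot be told apart in such bulk samples. The summed level of 10 matched neutrophil markers, as multiples of the 75th percentile, was 7.10 to 12.1 in WT untreated, 49.2 to 65.5 in WT LPS, 6.25 to 6.92 in KO untreated and 18.6 to 21.1 in KO LPS cells, with 4 to 6 of the 10 above background on any array, S100a8 leading. S100a8, Camp and Elane were above background on every array, S100a9 on the WT arrays only, and Mpo and Cxcr2 on none. The part of this list in the Csf3r values was not tested.

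With LPS, 5 of the 8 genes had KO arrays that did not overlap the WT arrays (Csf1, Csf2, Csf3 and Csf3r lower, Csf2ra higher), against 41.7% of all genes.

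The genes whose profiles were closest to each member were ranked by the root mean square difference of centred log2 levels over the arrays. For Csf1 they were Herc6, Kdm6b and Calhm6, with differences of 0.309, 0.309 and 0.319 against a range of 7.13 for Csf1 itself. For Csf2 they were the cytokine Il6 (0.656), the histidine decarboxylase Hdc (0.995) and the nitric oxide synthase Nos2 (1.22), against a range of 11.6. For Csf3 they were tissue factor F3 (0.296), the chemokine Ccl7 (0.564) and the endothelin Edn1 (0.571). F3 rose by 9.43 in WT and 7.52 in KO, close to the fitted 9.83 and 7.56 of Csf3, which rest on the floor. The closest to Csf1r (Rpsa, Sgpl1 and Sharpin) follow KO untreated replicate 3 of the probe described above. For the other receptors the closest were Arhgdib, Picalm and Pgam1 (Csf2ra), Ppp4r1, Rbpj and Nck1 (Csf2rb), Pabpn1, Psmd4 and Mcl1 (Csf2rb2, 14 arrays) and Mtif2, Pclaf and Lrrc8e (Csf3r).

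The counts of the pathway lists are to be read against the 34.8% of all genes that rose and 25.2% that fell with LPS in WT, and 31.1% and 28% in KO. Related ligands and receptors included Il34, the other ligand of the M-CSF receptor. Of 7 tested of 11 listed, 3 rose and 0 fell with LPS in WT, and the same counts held in KO. The medians were 0.62 and 0.56 against 0.14 and 0.16 over all genes. The response was higher in KO for 2 of the 7 and lower for 0, against 2.5% and 7.87% of all genes. Il34 was above background on 0 WT untreated, 1 WT LPS and 2 KO untreated arrays and on all 3 KO LPS arrays, where its levels were -0.43, -0.64 and -0.45. It rose by a fitted 3.38 ± 0.37 in KO (adjusted p = 2.33e-06). All WT untreated arrays sat at the floor, so no size is given for the WT change, and the difference of the responses (2.76, adjusted p = 0.00342) rests on that floor. Its KO LPS arrays all lay above the arrays of the other groups. Thus Csf1 was lower and Il34 higher in KO than in WT with LPS, by log2 -0.86 and 3.37. Pdgfrb, a related receptor kinase that neighbours Csf1r on its chromosome in the RefSeq table and marks stromal cells, rose by 3.92 ± 0.17 in WT and 6.10 ± 0.18 in KO (difference 2.18 ± 0.25, adjusted p = 8.32e-05). The summed level of 8 fibroblast and stromal markers, a list that holds Pdgfrb, was 2.50 to 4.80 in WT untreated, 6.80 to 10.6 in WT LPS, 3.14 to 4.50 in KO untreated and 18.1 to 20.2 in KO LPS cells. Between 4 and 8 of the 8 were above background on any array, and Pdgfra was above it on 1 array in all. Pdgfrb led the sum with LPS, with mean levels of 1.998 in WT and 3.761 in KO. Col1a1 (1.374 against 1.202), Col3a1 (0.801 against -0.241) and Cxcl12 (-2.923 against -3.965) had higher means in KO than WT LPS cells. Dcn (-2.812 against -0.608) and Col1a2 (-0.575 against -0.431) had lower means. Lum was above background on 4 of 4 WT LPS and 0 of 3 KO LPS arrays. The sum therefore does not measure stromal content apart from Pdgfrb, and the list's part in these values was not tested.

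Of 22 receptor-proximal signalling genes, 11 rose, 5 fell and 6 did not pass with LPS in WT, and the counts in KO were the same, with medians of 0.42 and 0.53. Stat5a, a main STAT of GM-CSF signalling, rose by 3.18 ± 0.11 in WT and 2.42 ± 0.12 in KO, and the responses differed by -0.76 ± 0.17 (adjusted p = 0.0107). Jak2, the kinase bound by the beta chain, rose by 2.72 ± 0.15 in WT and 3.11 ± 0.16 in KO, and Stat3 by 3.15 ± 0.24 in WT and 2.003 ± 0.25 in KO. Inpp5d, a lipid phosphatase that dampens these pathways, fell, with changes of -3.13 ± 0.15 in WT and -3.59 ± 0.16 in KO. For the difference of the responses 1 gene was higher (Fgr, adjusted p = 0.0212, and 0.0595 without KO LPS replicate 2), 1 lower (Stat5a) and 20 did not pass. Over all genes 2.5% were higher and 7.87% lower, and 10.4% passed, so the list does not stand out here. Under quantile normalization 6 rose and 7 fell in WT, so the balance in this list depends on the scaling.

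Of 12 tested feedback genes and targets of these receptors, 10 rose and 0 fell with LPS in WT, and 9 rose and 2 fell in KO, with medians of 2.26 and 1.48. Cish and Socs1, feedback inhibitors that STAT proteins induce, rose by 7.16 ± 0.16 and 6.50 ± 0.19 in WT and 6.17 ± 0.18 and 6.96 ± 0.21 in KO. The responses of 6 of the 12 were lower in KO and of 0 higher, against 7.87% and 2.5% of all genes. Ccnd2, a cyclin gene, rose by 6.27 ± 0.14 in WT, and its response was lower in KO by -3.48 ± 0.21 (adjusted p = 2.95e-07). Socs2 and Dusp6, inhibitors of STAT and of MAP kinase signalling, had responses lower by -2.19 ± 0.23 and -2.01 ± 0.31. The Ccnd2 levels were 4.91 to 5.25 in WT LPS and 2.56 to 3.19 in KO LPS cells, with no overlap. Untreated levels add to some of these differences. Ccnd2 was higher in KO untreated by 1.31 ± 0.14, and Socs2 had untreated means of -0.78 in KO and -1.74 in WT. With LPS, KO was below WT by log2 -2.17 for Ccnd2, -1.87 for Dusp6 and -1.23 for Socs2. Untreated, 5 of the 12 were higher in KO and 3 lower, against 13.7% and 4.66% of all genes.

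**Figure D4:**
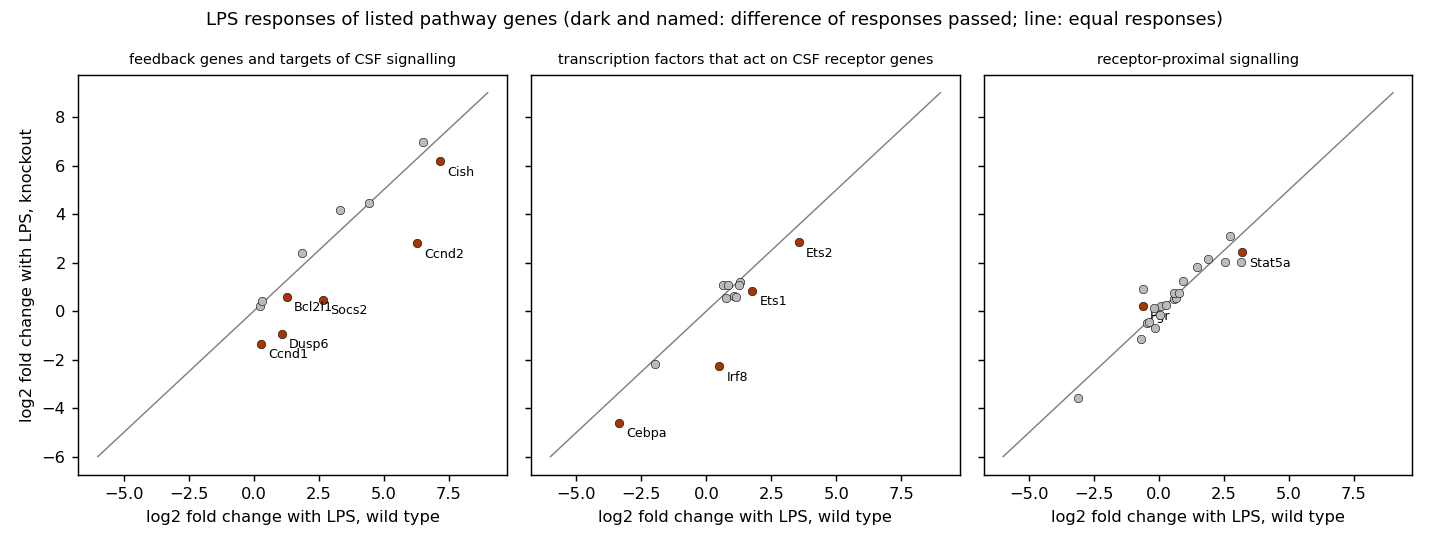
LPS response (log2 fold change) in KO against that in WT for genes of 3 pathway lists, one point a gene, with the line of equal responses; dark named points passed the test of the difference. In the feedback list, 6 of 12 genes, including Ccnd2, Socs2 and Dusp6, lie under the line.

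Transcription factors that act on the receptor genes rose in 9 of 12 cases and fell in 2 in WT, against 34.8% and 25.2% of all genes, and rose in 8 and fell in 3 in KO, against 31.1% and 28%, with medians of 0.93 and 0.73 against 0.14 and 0.16. Ets2 rose by 3.55 ± 0.14 in WT and 2.83 ± 0.15 in KO. Cebpa, which acts on Csf3r and Csf2ra, fell, with changes of -3.38 ± 0.16 in WT and -4.60 ± 0.17 in KO. Irf8 read 4.92 to 5.29 in WT LPS and 2.30 to 2.93 in KO LPS cells, and its response was lower in KO by -2.76 ± 0.20 (adjusted p = 2.07e-06). The responses of 4 of the 12 were lower in KO and of 0 higher, against 7.87% and 2.5% of all genes.

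Among 17 factors that act on the Csf2 and Csf3 genes or their mRNAs, 13 rose and 4 fell in WT (34.8% and 25.2% of all genes), and 11 rose, 5 fell and 1 did not pass in KO (31.1% and 28% of all genes rose and fell), with medians of 1.24 and 1.09. The AP-1 family members Fosl1 and Batf rose by 4.60 ± 0.18 and 4.21 ± 0.13 in WT and by 4.28 ± 0.19 and 3.72 ± 0.15 in KO. Zfp36l1, whose protein binds and destabilises mRNAs with AU-rich elements, read 4.39 to 4.74 in WT LPS and 1.58 to 1.77 in KO LPS cells. It fell by 3.58 ± 0.16 in KO, and its response was lower in KO by -4.13 ± 0.22 (adjusted p = 1.14e-07). The responses of 3 of the 17 were lower in KO (Zfp36l1, Zfp36l2 and the targeted Junb, which had no signal above background in KO), against 7.87% of all genes, and 14 did not pass.

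Of 10 genes linked to culture in GM-CSF, 9 rose and 1 fell in WT, and 8 rose, 1 fell and 1 did not pass in KO, with medians of 1.10 and 1.11. The members moved in both directions between genotypes. Inhba, which encodes activin A, read 3.02 to 3.68 in WT LPS and -0.33 to 0.32 in KO LPS cells. The chemokine genes Ccl17 and Ccl22 were higher in KO with LPS by 2.22 ± 0.13 (adjusted p = 6.19e-08) and 2.40 ± 0.16 (adjusted p = 1.33e-07). Of 11 tested genes linked to culture in M-CSF, 3 rose and 3 fell in WT, and 1 rose and 4 fell in KO, with medians of -0.06 and -0.28. Cx3cr1, the fractalkine receptor, fell, with changes of -4.58 ± 0.18 in WT and -3.98 ± 0.19 in KO. Under quantile normalization 6 of the 11 fell in WT and 9 in KO. Untreated, 6 of the 11 were higher in KO and 0 lower, against 13.7% and 4.66% of all genes (10 higher under quantile normalization), with Mrc1 higher by 1.81 ± 0.15 and Mertk by 1.27 ± 0.18. The summed level of 8 T and NK cell markers was also higher in KO untreated cells, at 10.72 to 14.3 against 2.50 to 4.19 in WT, and with LPS it was 1.76 to 2.22 in KO and 1.01 to 1.26 in WT. Between 3 and 4 of the 8 were above background on any array. Cd3e was above it on every array and Cd2 and Klrb1c on most, while Cd3d, Cd3g and Ncr1 sat at the floor. Cd28 led the sum, with untreated means of 3.596 in KO and 1.638 in WT. Untreated, Cd3e also had a higher mean in KO (-2.924 against -3.245), but Cd2 and Klrb1c did not. The sum therefore does not measure T and NK cell content apart from Cd28. The list's part in these values was not tested.

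The deposited value table, which holds log2 values of the same arrays, gave other genotype values for Csf1 and Csf2. On WT LPS replicate 3, 5 of the 9 listed spots of the main Csf1 probe all held 7.48 there, while the median spot signals of the 9 were 26474 to 36887 in the scanner file and the highest listed value was 14.28. For Csf2, 2 of 8 spots on WT LPS replicates 1 and 2, and 1 of 8 on WT LPS replicate 3 and KO LPS replicate 2, were off the array's trend by more than 4-fold. With that table, KO against WT for Csf1 was 0.17 (adjusted p = 0.896) with LPS and -0.76 (adjusted p = 0.485) untreated.

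**Figure D5:**
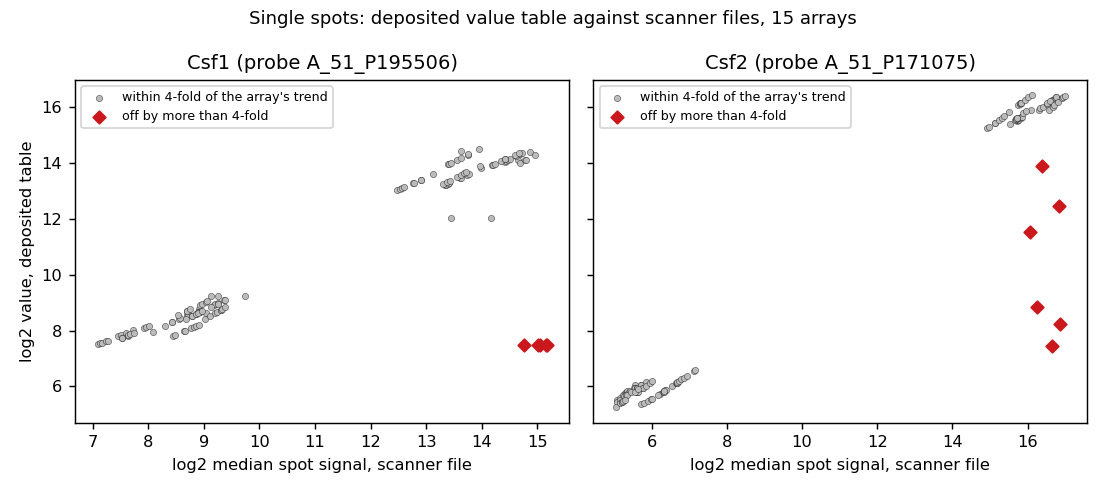
Log2 value in the deposited table against log2 median spot signal in the scanner files, one point a spot, for the main Csf1 and Csf2 probes on 15 arrays. Red diamonds are off the array's own trend by more than 4-fold, and the Csf1 spots among them share the value 7.48.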

How the data were processed

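Per the labels, amplified RNA was coupled to Cy3 and hybridised to Agilent mouse arrays, and spot values come from Agilent Feature Extraction 10.7.3.1, per the file headers, on a design that refers to mm9. Per the file headers the processed signal is an intensity with the background subtracted and no scaling between arrays. The deposited value table holds log2 values, with the steps that made it not given in the sources used here. The members and gene lists were chosen with earlier results of these data known.

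Outlier spots, whether non-uniform or outlying among copies, were removed (4827). Signals were divided by the array's 75th percentile (476 to 1481), raised to a common floor (-4.50 on the log2 scale), and log2 was taken, and spots of a probe were averaged. Probes that passed background on 3 or more arrays in any group stayed in, and the probe of highest mean level stands for its gene, each other probe being fitted among all 32507 kept probes. Between 51.0% and 63.2% of spots were well above background, and the number of arrays limits the precision. The fit was limma 3.58.1 in R 4.3.3 (lmFit and eBayes, 4 group means, Benjamini-Hochberg over 14192 genes at 0.05). Gene names and neighbours are those of RefSeq for GRCm38.p6, and promoter windows with their coordinates from a RefSeq promoter table of that build, which is not the build of the array design. A fold is given as "at least" where a group had no array above background, against the common floor. Named list genes are the 3 with the largest change among those called in a contrast; those named as closest to a member are the 3 of smallest difference. Alternatives were quantile normalization, a median scale, normexp with quantile on median signals (the mean signal was not used here), the value table, other floors, filters, probes, array weights, trended moderation, the replicate block, leaving out each array, and, chosen after seeing the data, leaving out the 3 arrays of largest spread.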

Additional observations from a re-analysis of the deposited data

Results flagged for a closer look

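Among 40 probe and group combinations with 4 arrays, 3 had an array far from the others, and chance gives about 1 in 20. These were Csf2 on WT untreated replicate 1 (log2 level -3.63; the others are set to the floor, so any value above it would stand apart), Csf3 on WT LPS replicate 2 (5.65, the others 5.18 to 5.26) and the Csf1r probe A_55_P2025078 on KO untreated replicate 3 (1.82, the others 8.01 to 9.13).

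The LPS response of Csf3 differed between genotypes (log2 -2.27, KO minus WT), by the test of the difference in limma. So did those of listed genes. Lower in KO were Zfp36l1 (-4.13), Inhba (-3.55), Ccnd2 (-3.48), Irf8 (-2.76), the targeted Junb (-2.54), Socs2 (-2.19), Dusp6 (-2.01), Cebpa (-1.22), Mertk (-1.13), Mmp12 (-1.04), Zfp36l2 (-0.97), Ets1 (-0.93), Folr2 (-0.91), Itgb5 (-0.87) and Stat5a (-0.76). Higher in KO were Il34 (2.76), Ccl22 (2.40), Ccl17 (2.22), Pdgfrb (2.18) and Fgr (0.85). Several of these sizes rest on the floor. Csf3 and Ccl22 were above background on no untreated array and Ccl17 sat at the floor on all of them, so their differences are those between the LPS levels. Junb was above background on 0 of 7 KO arrays, so its value restates the WT response. Inhba was above background on 1 of 4 WT and 0 of 4 KO untreated arrays, and Il34 on 0 of 4 WT untreated arrays. A lower response in KO need not be a lower level with LPS. Mertk had untreated means of 2.31 in KO and 1.03 in WT, and 0.84 and 0.70 with LPS. Folr2 had 5.35 and 4.01 untreated, and 5.08 and 4.64 with LPS. Ets1 had -1.14 and -1.91 untreated, and -0.30 and -0.15 with LPS. Without KO LPS replicate 3 the calls of Folr2 (adjusted p = 0.0829), Itgb5 (-0.78, 0.0629) and Mertk (-0.96, 0.055) were lost, and without KO LPS replicate 2 that of Fgr (0.0595).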

How the results depend on the processing

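The LPS rises of Csf1, Csf2, Csf3 and Csf2rb and the Csf3 genotype difference kept their direction and call under every alternative run. For Csf2ra, normexp with quantile turned the LPS response to -0.20 in WT and -0.0937 in KO, and quantile normalization to -0.19 and -0.0835. For Csf2rb2, the LPS response in KO turned to -0.24 in the value table, -0.22 with normexp and -0.24 with quantile normalization, and in WT to -0.39 with the last. With LPS, KO against WT turned to 0.17 for Csf1 and 0.17 for Csf2 in the value table. Other probes turned values of Csf1r in KO (-0.74 and -0.86) and, for KO against WT with LPS, of Csf1r (-0.69) and Csf2rb (-0.77). The number of genes passing for the difference of responses was 1472 and became 4402 with array weights, 527 in the value table and 907 to 1961 when an array was left out. For KO against WT it was 4231 with LPS, 2588 in the value table and 2760 to 4754 leaving out arrays, and untreated 2607, 5447 with array weights and 1164 in the value table. Members passing for the difference numbered 2 (Csf2 added) with array weights, a doubled floor, normexp, quantile normalization and without the 3 arrays of largest spread, and 1 to 2 leaving out arrays. Untreated, 2 passed (Csf2rb2 added) with array weights and without those 3 arrays. For LPS alone, 7915 to 8745 genes passed in WT and 7577 to 8646 in KO leaving out arrays. With the replicate number as a block, 1099 genes passed for the difference and the KO LPS response of Csf2rb2 was 0.39 (adjusted p = 0.0612). Same-numbered arrays correlated at -0.535 to 0.563 in their deviations, and differently numbered ones at -0.526 to 0.659. These values show no pairing by number, but with so few arrays they cannot exclude it. Signal over background limits Csf2 and Csf3 in untreated cells. The cause of these changes was not tested.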

Other observations

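Proteases that shed these receptors or process M-CSF and G-CSF rose in 5 of 8 cases and fell in 1 with LPS in WT, against 34.8% and 25.2% of all genes, and rose in 4 and fell in 1 in KO, against 31.1% and 28%, with medians of 0.53 and 0.47. Rhbdf2, a partner that the shedding enzyme ADAM17 needs, rose by 2.25 ± 0.15 in WT and 2.55 ± 0.17 in KO (limma, adjusted p = 2.04e-08 and 3e-08). Adam17 was higher in KO untreated by 0.73 ± 0.17 (adjusted p = 0.00814) and Rhbdf1 by 1.15 ± 0.15 (adjusted p = 0.000119). With LPS, 4 of the 8 were higher in KO and 2 lower, against 13.6% and 16.2% of all genes. Mmp12, the macrophage elastase, was lower by -1.62 ± 0.16 (adjusted p = 5.6e-06), and Rhbdf1 was higher by 1.48 ± 0.16 (adjusted p = 1.65e-05).

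Over all 50378 listed features, the share that was off the array's own trend in the deposited value table by more than 4-fold was 4.09% on KO untreated replicate 3, 3.57% on WT LPS replicate 3, 2.1% on WT LPS replicate 1, 1.11% on KO untreated replicate 2, 0.879% on KO LPS replicate 2 and at most 0.159% on the other 10 arrays.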
